A study of Mus musculus with 10 samples.

Results

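OVE918 and OVE853 are transgenic mouse families whose lenses secrete a constitutively active human TGF-β1, and their Tgfb1 RNA levels differ. The comparison described here set the 4 OVE918 libraries against the 3 OVE853 libraries, 7 of the 10 libraries of the series, over all expressed genes. It asked which genes differed along with Tgfb1 and which genes, elevated or reduced in both families, were at similar levels in the 2 lines. The libraries were assigned by their labelled line and not by a measured value. Both families are homozygous, are on the FVB/N background, and carry the transgene behind the lens-specific murine αA-crystallin promoter. Mice were 3 weeks old and, by the study's description, of both sexes and from different litters. The remaining 3 libraries came from WT mice of the same age, and they are used here only to place the 2 lines. Each library was a pool of whole lens epithelia, from up to 9 mice for OVE853 and WT and up to 7 mice for OVE918. The explants of the 2 transgenic lines included the anterior subcapsular cataract (ASC) plaque. The 2 families also differ in where the transgene inserted and in what surrounds it, so that a higher TGF-β1 dose cannot be told apart from any other difference between the lines.

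TGF-β is secreted in a latent form, held in the matrix by carrier proteins, and signals after release through type I and type II receptor kinases to SMAD2 and SMAD3. These enter the nucleus with SMAD4 and change the transcription of matrix, contractile and feedback genes, among them the inhibitor Smad7. In the lens, active TGF-β drives the epithelium to an epithelial-mesenchymal transition (EMT), in which cells deposit collagens and other extracellular matrix (ECM), acquire smooth muscle actin and form the fibrotic plaque of ASC.

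The OVE853 libraries held 27409730 to 31908525 counts on genes and the OVE918 libraries 25342220 to 28562553, a like depth. Levels are given as CPM, counts relative to the library total after scaling by edgeR's TMM factors. The epithelial genes Foxe3, Pax6 and Cdh1 were abundant in all 7 transgenic libraries, at 513 to 836 CPM, 356 to 473 CPM and 171 to 277 CPM. Markers of neighbouring tissue were present too, and the sums of some lists differed between the lines while others overlapped. Sums that overlapped included retinal neurons (171 to 272 CPM in OVE853, 159.5 to 378 CPM in OVE918) and pigmented epithelium (43.2 to 86.6 and 44.8 to 80.5 CPM). Those of endothelium (91.4 to 125 and 99.8 to 117 CPM) and macrophages (82.4 to 136 and 59.0 to 151 CPM) overlapped as well. The sum of 4 male markers was 51.9 to 152 CPM in OVE853 and 31.7 to 118 CPM in OVE918. It was 0 CPM in WT replicate 2 and up to 52.1 CPM in WT, so that the sexes were not equally mixed in all pools. The summed level of 13 markers of the non-pigmented ciliary epithelium was 746, 800 and 803 CPM in OVE853 and 439, 394.5, 527 and 390 CPM in OVE918, against 1252 to 2273 CPM in WT. The summed level of 28 lens fiber cell markers was 203300, 246700 and 173300 CPM in OVE853 and 412800, 229700, 309900 and 414400 CPM in OVE918. In WT this sum was 259900 to 305600 CPM, above all OVE853 libraries, with OVE918 libraries on both sides. The sum of 10 fibroblast and pericyte markers was 701 to 727 CPM in OVE853, 440 to 627 CPM in OVE918 and 418 to 576 CPM in WT. The sum of 9 corneal markers, 2 of them at 0 in all 7 transgenic libraries, was 2119 to 2291 CPM in OVE853, 1777 to 2048 CPM in OVE918 and 2630 to 4311 CPM in WT. These lists share Lum and Dcn, which read at most 0.443 and 1.2 CPM in the 7 transgenic libraries. Col3a1, of the fibroblast list, read at most 3.6 CPM there. Only 2 genes of each list passed the expression filter, so that these sums rest on few genes and do not measure the cells named. The fibroblast and corneal sums lay lower in OVE918 than in OVE853 without overlap. OVE918 replicate 4 stood apart on the second principal component, at -124, where the other OVE918 libraries lay between -48.7 and -14.6. In bulk RNA, fewer cells of a type and less RNA per cell cannot be told apart.

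**Figure D1:**
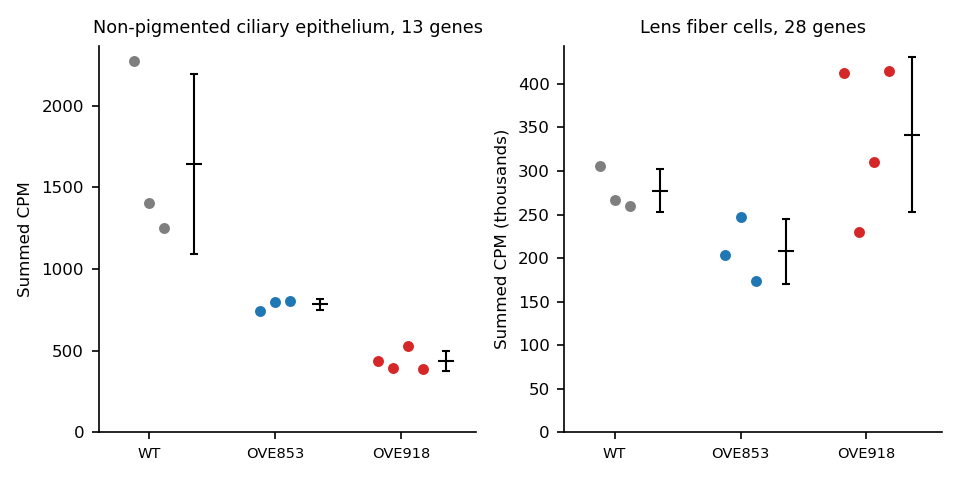
Summed CPM of the non-pigmented ciliary epithelium markers (left, 13 genes) and of the lens fiber cell markers (right, 28 genes, axis divided by 1000) in each library of WT, OVE853 and OVE918. Points are libraries, and the bar beside them is the mean ± SD. The ciliary sums are highest in WT and lowest in OVE918 with no overlap between groups, whereas OVE918 replicate 2, at 229700 CPM, lies inside the OVE853 range of the fiber sum.

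Tgfb1 itself set the scale. This gene, on the plus strand of chromosome 7 from 25386390 to 25404506 (GRCm39), read 361, 339 and 349 CPM in the OVE853 libraries and 881, 715.5, 717 and 788 CPM in the OVE918 libraries, against 50.6, 61.7 and 50.7 CPM in WT. All 3 groups were apart from each other, and the lowest OVE918 library lay well above the highest OVE853 library. The log2 difference between the lines was 1.15 (SE 0.11, 95% interval 0.91 to 1.39, edgeR quasi-likelihood test with Benjamini-Hochberg adjustment, FDR = 0.00388), which is 2.22-fold. Reads were counted on the mouse gene, and how many reads of the human transgene align there was not tested, so that the ratio describes counted Tgfb1 RNA and not the amount of active protein. The study states that fiber cells express the transgene too. Cryaa, whose promoter drives it, made up 8.23% to 9.17% of counts in OVE853 and 9.86% to 13.02% in OVE918. The part of fiber content and promoter activity in the Tgfb1 difference was not tested.

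The promoter whose kind drives both transgenes is shown together with those of 3 genes that differed between the lines. These are Opalin, which was listed at 0 in WT and followed Tgfb1 upward, and Optc and Col9a2, matrix genes that were lowest in OVE918. The sequences are the 250 bases before the gene start in the RefSeq table on GRCm38.p6, which is not the build of the counts, and read 5′ to 3′ on the strand of the gene. The regions are chr17:31677681-31677930 for Cryaa (plus strand), chr19:41077114-41077363 for Opalin (minus strand), chr1:133908000-133908249 for Optc (minus strand) and chr4:121039316-121039565 for Col9a2 (plus strand). Capitals mark CAGAC or its reverse complement GTCTG, the letters of the core SMAD binding element, searched on both strands.
Cryaa: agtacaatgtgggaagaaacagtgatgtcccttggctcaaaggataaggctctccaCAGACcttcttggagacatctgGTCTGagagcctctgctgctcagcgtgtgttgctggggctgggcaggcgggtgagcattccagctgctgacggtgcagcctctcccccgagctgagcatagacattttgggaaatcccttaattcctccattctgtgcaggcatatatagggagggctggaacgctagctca
Opalin: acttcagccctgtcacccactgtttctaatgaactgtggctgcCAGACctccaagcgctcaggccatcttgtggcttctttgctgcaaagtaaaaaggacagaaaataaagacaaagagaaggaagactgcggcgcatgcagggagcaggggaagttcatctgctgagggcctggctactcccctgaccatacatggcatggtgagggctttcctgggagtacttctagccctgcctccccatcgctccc
Optc: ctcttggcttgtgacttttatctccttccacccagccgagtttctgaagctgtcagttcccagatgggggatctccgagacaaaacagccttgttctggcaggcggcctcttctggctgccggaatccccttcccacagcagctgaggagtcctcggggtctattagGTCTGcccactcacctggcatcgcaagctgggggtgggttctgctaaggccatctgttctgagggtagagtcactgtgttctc
Col9a2: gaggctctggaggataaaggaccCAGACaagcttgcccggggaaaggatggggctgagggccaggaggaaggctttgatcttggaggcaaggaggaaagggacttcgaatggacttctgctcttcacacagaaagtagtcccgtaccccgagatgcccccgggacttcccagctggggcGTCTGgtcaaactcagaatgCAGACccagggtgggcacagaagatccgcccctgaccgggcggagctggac
These letters occurred 2 times in the Cryaa window, 1 time each in those of Opalin and Optc and 3 times in that of Col9a2. They occurred in 39.5% of the windows of all genes tested with an entry in the table, so that a match is a description and not a binding site. The AP-1 letters TGACTCA or TGAGTCA, present in 2.65% of all these windows, were in none of the 4. Only 7931 of the 11097 genes tested matched an entry, under 80%. Motif shares were also computed for sets of genes, but for this reason they are not compared here.

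Across the 11097 genes tested, 54 (0.487%) were called between the lines, with an FDR of at most 0.05 and an at least 2-fold difference. Of these, 8 (0.0721%) were higher in OVE918 and 46 (0.415%) were lower. Without the fold minimum, 146 genes passed the FDR, 42 higher and 104 lower. The libraries of the lines did not overlap in all 54 called genes, as they did not in 29.5% of all genes tested. Calls were fewer than against WT, where the same rule called 491 genes (4.42%) in OVE853 and 621 genes (5.6%) in OVE918. Among the OVE918 libraries, replicate 2 was the lowest in 23 of the 46 lower genes and replicate 4 in 19, while replicate 3 was the highest in 32. Replicate 4 was the highest in 7 of the 8 higher genes.

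The called genes differed in where OVE853 stood relative to WT. OVE853 lay between WT and OVE918 in 34 genes, which are termed graded because OVE918 was also called against WT in the same direction. Only 3 of them rose, and 31 fell. In 15 of the 46 lower genes OVE853 was instead the highest of the 3 groups, and in 5 of the 8 higher genes it was the lowest, so that the level of these 20 genes did not order with Tgfb1. Just outside the fold limit stood Drd4 at a log2 difference of 0.995 and Akap17a at -0.997, each with the FDR passed, and just inside it stood Pros1 at -1.03. Cldn2 was just outside the FDR limit (FDR = 0.0501) and Fam107a just inside (FDR = 0.0495).

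These counts rest on few libraries. Leaving out a single OVE853 library lowered the 46 lower calls to 5, 9 or 6 (without replicate 1, 2 or 3), and leaving out OVE918 replicate 1 or 4 lowered them to 12 or 10. The 8 higher calls became 33 without OVE918 replicate 2, 25 without WT replicate 3, 12 without WT replicate 1, 3 without OVE918 replicate 4 and 1 without OVE918 replicate 1 or any OVE853 library.

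The 3 graded genes that rose were Tgfb1, Sct and Opalin. Sct, the gut hormone secretin, read 2.39, 1.11 and 1.26 CPM in OVE853 and 4.07, 5.03, 5.98 and 10.4 CPM in OVE918, against 0.492, 0.962 and 1.16 CPM in WT. OVE918 was above all other libraries, while OVE853 overlapped WT. The log2 difference was 1.99 (95% interval 1.14 to 2.83, FDR = 0.0457). Opalin, a membrane glycoprotein known from the myelin of oligodendrocytes, read 5.53, 2.48 and 2.48 CPM in OVE853 and 10.5, 11.7, 14.1 and 22.8 CPM in OVE918. It was listed at 0 counts in each WT library, and the lines did not overlap. The log2 difference was 2.07 (95% interval 1.24 to 2.90, FDR = 0.048). Both genes were low, with OVE918 replicate 4 the highest library in each.

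**Figure D2:**
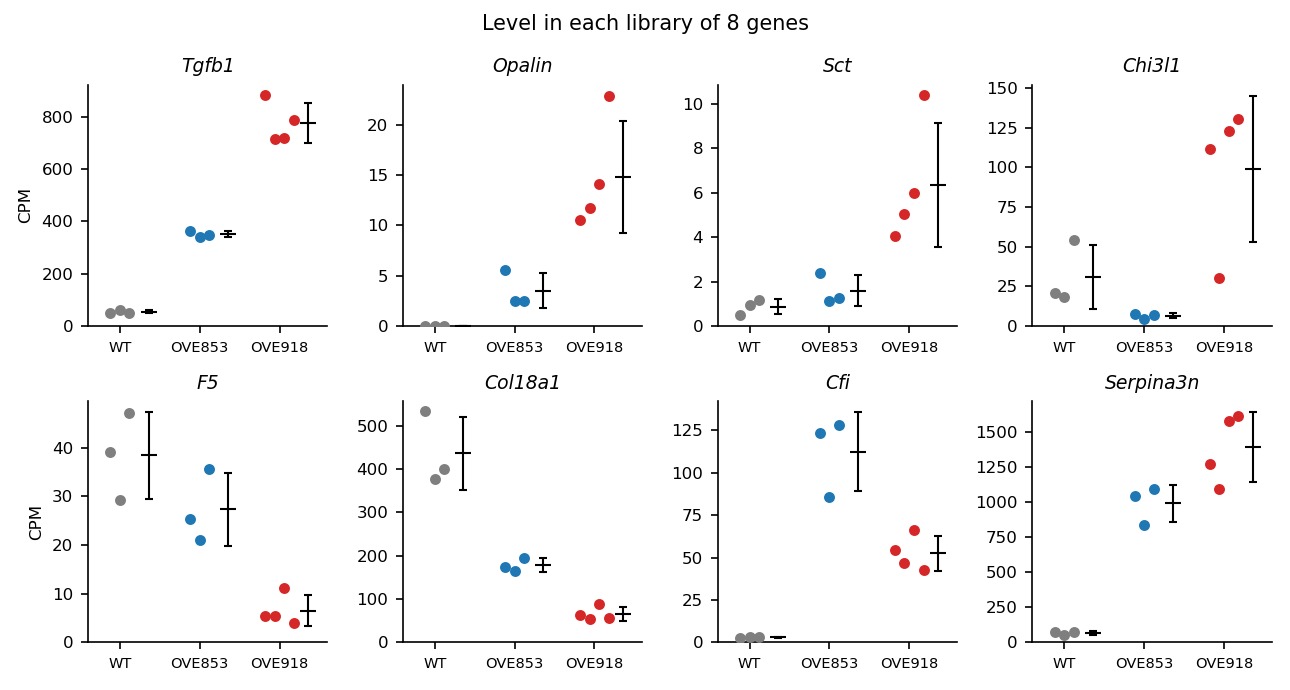
CPM in each library of 8 genes in WT, OVE853 and OVE918. Points are libraries and bars the mean ± SD, and each vertical axis starts at 0. Tgfb1, Opalin and Sct are highest in OVE918, F5 and Col18a1 lowest in OVE918, Chi3l1 lowest in OVE853 and Cfi highest in OVE853, and Serpina3n stands far above WT in both lines.

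The largest graded fall was that of F5, which encodes coagulation factor V. It read 25.4, 21.1 and 35.7 CPM in OVE853 and 5.53, 5.401, 11.3 and 4.01 CPM in OVE918, against 39.1, 29.2 and 47.0 CPM in WT. The OVE853 libraries overlapped WT, and all OVE918 libraries lay below both. The log2 difference was -2.06 (95% interval -2.78 to -1.33, FDR = 0.025). Of the 31 graded falls, 17 had this form, in which OVE853 was not called against WT, and 14 were called reduced in OVE853 as well. Over these 31 genes the log2 fold change from WT had a median of -0.97 in OVE853 and -2.48 in OVE918.

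Several graded falls were matrix genes. Col2a1, the fibrillar collagen of cartilage and vitreous, read 58.6, 65.8 and 69.8 CPM in OVE853, the same range as WT (51.9 to 84.8 CPM), and 17.3, 12.6, 31.7 and 15.6 CPM in OVE918, a log2 difference of -1.74 (95% interval -2.37 to -1.11, FDR = 0.026). Col9a2, a chain of the collagen that coats such fibrils, read 71.7, 74.7 and 79.2 CPM in OVE853 and 27.5, 16.8, 39.6 and 21.4 CPM in OVE918 (log2 difference -1.51, FDR = 0.025). In both genes the lines were fully apart. Col18a1, a basement membrane collagen that releases endostatin, read 174, 165 and 195.5 CPM in OVE853 and 63.9, 53.7, 88.7 and 56.3 CPM in OVE918, against 377 to 533 CPM in WT. Here the 3 groups formed separate steps, and the log2 difference was -1.44 (95% interval -1.84 to -1.04, FDR = 0.00966). Optc, the eye proteoglycan opticin, stepped in the same way, from 388 to 873 CPM in WT to 168, 222 and 246 CPM in OVE853 and 75.3, 40.3, 98.7 and 62.3 CPM in OVE918 (log2 difference -1.62, 95% interval -2.35 to -0.88, FDR = 0.0485). Ltbp2, a fibrillin-binding member of the latent TGF-β binding protein family, read 94.6, 75.5 and 105 CPM in OVE853 and 29.4, 17.3, 41.9 and 22.2 CPM in OVE918, against 108 to 169.5 CPM in WT (log2 difference -1.73, 95% interval -2.33 to -1.12, FDR = 0.025). Optc is itself in the list of ciliary epithelium markers, as is the collagen Col9a1. Their means were 212 and 177 CPM in OVE853 and 69.2 and 54.2 CPM in OVE918. The ciliary sum, which fell over the same libraries, is thus not independent of the matrix genes. The part of ciliary cells in the matrix falls was not tested.

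Other graded falls among the largest were of genes with varied roles. Il33, a nuclear alarmin cytokine, fell by 1.63 on the log2 scale between OVE853 and OVE918 (FDR = 0.0442), with OVE918 libraries at 9.42 to 23.5 CPM and OVE853 libraries at 38.0 to 64.0 CPM. Cldn1, a tight junction claudin, fell by 1.70 (FDR = 0.048), and Crhbp, which binds corticotropin-releasing hormone, by 1.67 (FDR = 0.0414). Rhoj, a small GTPase of the Cdc42 group, fell by 1.52 (FDR = 0.0161). None of these had overlapping libraries between the lines. Bmp4, a bone morphogenetic protein, fell by 1.46 (FDR = 0.0397), from 8.12 to 9.03 CPM in OVE853 to 1.68 to 4.33 CPM in OVE918.

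**Figure D3:**
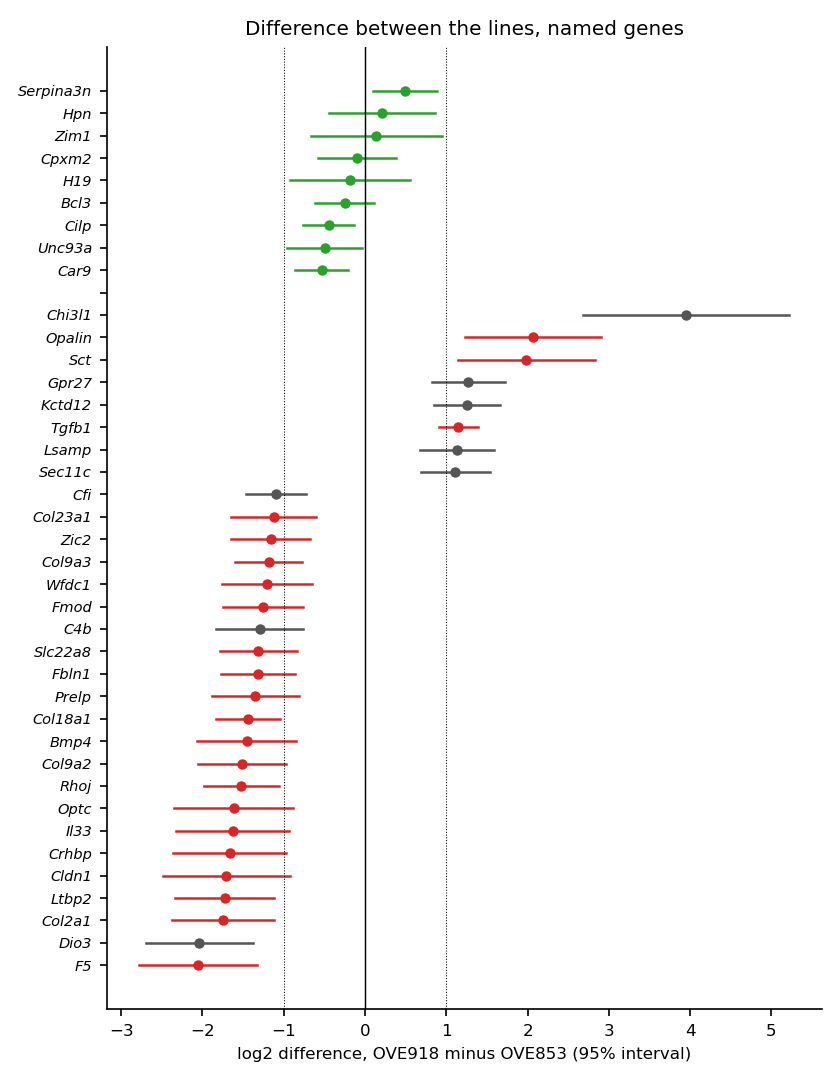
Log2 difference between OVE918 and OVE853 with its 95% interval for genes named by rule. Green marks saturated genes with the largest changes over WT, red the graded genes and grey the other called genes, and dotted lines stand at -1 and 1. All green intervals lie inside the dotted lines, while the interval of Chi3l1 reaches from 2.69 to 5.22.

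The gene with the largest difference between the lines was Chi3l1, a chitinase-like glycoprotein secreted in inflammation and remodelling. It read 7.64, 4.67 and 6.74 CPM in OVE853 and 112, 30.4, 123 and 130 CPM in OVE918, against 20.7, 18.0 and 54.3 CPM in WT. OVE853 lay below WT and OVE918 replicate 2 inside the WT range, while the other OVE918 libraries were above it. The log2 difference was 3.95 (95% interval 2.69 to 5.22, FDR = 0.0355), composed of -2.28 in OVE853 over WT (FDR = 0.0391) and 1.67 in OVE918 over WT (FDR = 0.0698). The remaining 4 higher genes with OVE853 lowest had smaller differences, from 1.11 to 1.27. Gpr27, an orphan receptor, was at 4.39 to 7.67 CPM in OVE853 and 13.3 to 18.4 CPM in OVE918 (log2 difference 1.27, FDR = 0.025). Kctd12, an auxiliary subunit of GABA-B receptors, was at 11.6 to 15.3 CPM and 24.4 to 39.9 CPM (1.26, FDR = 0.0202). The cell adhesion protein gene Lsamp was at 54.8 to 93.5 CPM and 131 to 210 CPM (1.13, FDR = 0.0396), and the signal peptidase subunit gene Sec11c at 14.0 to 17.6 CPM and 28.2 to 49.5 CPM (1.11, FDR = 0.0349). All 4 had OVE918 above OVE853 in every library.

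Dio3, the imprinted deiodinase that inactivates thyroid hormone, showed the reverse. It read 18.3, 19.8 and 12.3 CPM in OVE853, overlapping WT at 11.2 to 16.02 CPM, and 4.50, 2.42, 6.36 and 3.05 CPM in OVE918. OVE918 was below every other library, with a log2 difference of -2.04 (95% interval -2.70 to -1.38, FDR = 0.019). Of the 15 lower genes with OVE853 highest, 7 were called elevated in OVE853 over WT. For 3 of these 7, the complement genes C4b and Cfi and the lipopolysaccharide-binding protein gene Lbp, OVE918 was called elevated as well. Cfi, the protease that inactivates C3b and C4b, read 124, 85.5 and 128 CPM in OVE853 and 54.6, 46.6, 66.1 and 42.9 CPM in OVE918, against 2.55 to 3.16 CPM in WT. Both lines were far above WT, and OVE853 was above OVE918 in every library (log2 difference -1.10, 95% interval -1.47 to -0.72, FDR = 0.0218). Lbp read 15.7, 25.6 and 21.4 CPM in OVE853 and 7.37, 8.27, 12.0 and 9.09 CPM in OVE918, against 0.984 to 1.12 CPM in WT (log2 difference -1.18, FDR = 0.025). C4b, the complement component C4, read 645, 502 and 608 CPM in OVE853 and 253, 201, 304 and 195 CPM in OVE918, against 50.6 to 107 CPM in WT (log2 difference -1.30, FDR = 0.0396). Reads of C4b can be shared with its near-identical copy C4a, so that its level is uncertain. The other 4 genes of this kind, named after their values were seen, were Unc5b, Nlgn4l, A2m and Pros1, with log2 differences between -1.30 and -1.03.

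Genes that changed against WT in both lines were far more numerous than genes that differed between them. Against WT, 370 genes were called in both lines in the same direction, 200 elevated and 170 reduced. The 3 contrasts share libraries, so that the following classes are descriptions. A gene was termed saturated when the whole 95% interval of its difference between the lines lay between -1 and 1 on the log2 scale, which held for 127 of the elevated genes (63.5%) and 84 of the reduced genes (49.4%). Another 68 elevated and 72 reduced genes had intervals too wide to place and were left undetermined. Over the 200 elevated genes the median log2 fold change was 1.89 in OVE853 and 1.81 in OVE918, with a median difference between the lines of -0.04. Over the 170 reduced genes it was -1.46 and -1.96, with a median difference of -0.36. The Tgfb1 difference of 1.15 lay above the whole interval of 168 of the 199 elevated genes other than Tgfb1, and for 106 of the 170 reduced genes the interval excluded an equal difference in the other direction.

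**Figure D4:**
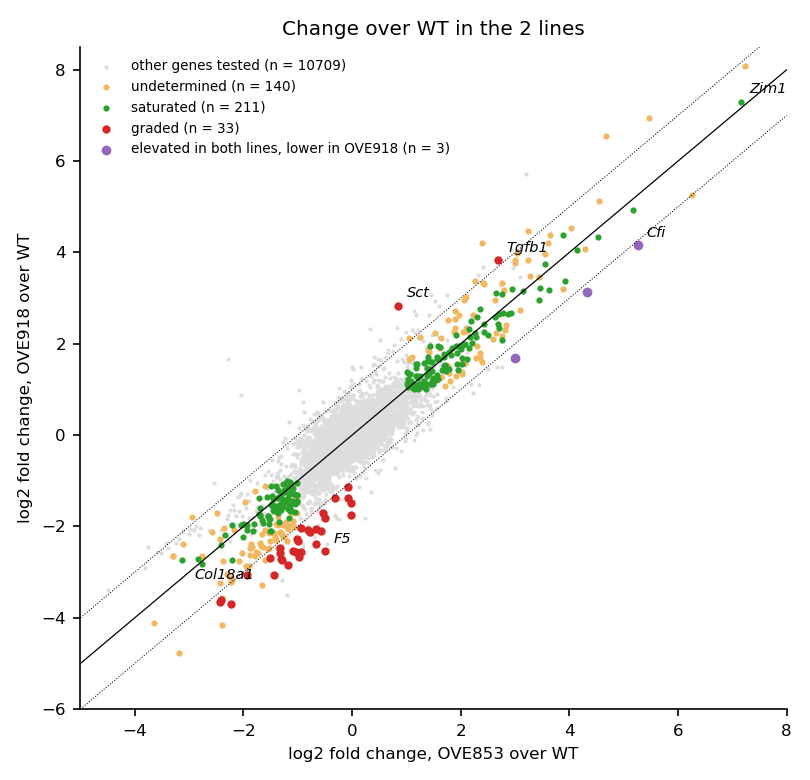
Log2 fold change over WT in OVE853 (horizontal axis) and OVE918 (vertical axis) of 11096 genes, leaving out Opalin, which was listed at 0 in WT. The solid line marks equal change and the dotted lines a 2-fold difference between the lines. Saturated genes (green, n = 211) lie along the solid line, and graded genes (red, n = 33) lie mostly below it among the reduced genes.

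Among the 10 saturated genes with the largest changes over WT were Zim1, Bcl3, H19, Cpxm2, Serpina3n, Hpn, Car9, Cilp and Unc93a. Zim1, an imprinted zinc finger gene, read 38.9, 52.9 and 45.5 CPM in OVE853 and 42.7, 77.7, 57.0 and 23.9 CPM in OVE918, against at most 0.462 CPM in WT. The lines overlapped, and the log2 difference was 0.14 (95% interval -0.67 to 0.94). Bcl3, a nuclear co-regulator of NF-κB, read 23.7, 18.1 and 23.7 CPM in OVE853 and 14.1, 19.8, 17.9 and 21.7 CPM in OVE918, against at most 0.760 CPM in WT (log2 difference -0.25, 95% interval -0.61 to 0.12). Serpina3n, an acute phase serine protease inhibitor, read 1041, 840 and 1091 CPM in OVE853 and 1275, 1095, 1579 and 1617 CPM in OVE918, against 50.9 to 77.3 CPM in WT. Its libraries just did not overlap, but the difference of 0.49 (95% interval 0.09 to 0.89) stayed under that of Tgfb1. The imprinted noncoding RNA H19 differed by -0.18 (95% interval -0.92 to 0.56), the imprinted zinc finger gene Peg3 by -0.05, and the mannose-6-phosphate receptor gene Igf2r by -0.06. Among the other saturated genes of the largest changes, Car9, the hypoxia-inducible carbonic anhydrase, differed by -0.53 (95% interval -0.86 to -0.21) and Cilp, a cartilage matrix protein, by -0.45 (95% interval -0.76 to -0.14), and neither passed the test between the lines.

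The TGF-β pathway itself, from a list of 16 ligands, activins, antagonists and receptors of which 13 were tested, held no called gene but Tgfb1 (background for higher calls 0.0721%). The median log2 difference over the 13 was -0.17, beside -0.02 over all genes, and 10 of the 13 were below 0. This list and those below were written with earlier results of these data known, so that their counts and shares are descriptions. Tgfb2, the isoform abundant in the eye, read 247, 254 and 258 CPM in OVE853 and 231, 248, 259 and 232 CPM in OVE918 (difference -0.06, 95% interval -0.25 to 0.13). Tgfbr1, the type I receptor, was at 52.7 to 59.4 CPM in OVE853 and 32.9 to 48.1 CPM in OVE918 (difference -0.40, FDR = 0.178), and the coreceptor Tgfbr3 at 13.2 to 15.2 CPM and 8.07 to 10.7 CPM (difference -0.57, FDR = 0.0951). Neither passed the test, though their libraries did not overlap. Of 8 tested genes in a list of latent TGF-β carriers, activators and their relatives, 1 was called lower, beside 0.415% of all genes. It was Ltbp2, described above as fibrillin-binding, and its call does not show a change in latent TGF-β carriage. Fbn1, the microfibril protein fibrillin-1 to which such carriers attach, missed the FDR at a difference of -1.01 (FDR = 0.064), with 148 to 176 CPM in OVE853 and 53.8 to 108 CPM in OVE918.

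Of 16 tested SMADs and feedback inhibitors, 0 were called, beside 0.487% of all genes, with a median difference of -0.18 and 13 below 0. Under an unadjusted p of 0.05, edgeR found 2538 of all genes to differ, so that few calls after adjustment do not show equal levels. Smad3, the receptor-activated SMAD, was at 102 to 118 CPM in OVE853 and 59.3 to 91.4 CPM in OVE918 (difference -0.51, 95% interval -0.82 to -0.20, FDR = 0.0846). Smad7, the inhibitory SMAD that TGF-β induces, read 31.7, 24.9 and 35.5 CPM in OVE853 and 18.4, 26.6, 20.9 and 18.1 CPM in OVE918, against 17.1 to 22.5 CPM in WT (difference -0.55, 95% interval -0.92 to -0.17, FDR = 0.11). The lines overlapped through OVE918 replicate 2. Bambi, a pseudoreceptor that blocks TGF-β signalling, was reduced in both lines and differed by -0.81 (FDR = 0.0834).

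Among 18 tested genes commonly used as TGF-β targets, Ltbp2 again was the single call, beside 0.415% of all genes called lower. The median difference was 0.02, with 9 genes above 0 and 9 below. Ccn2, connective tissue growth factor, differed by -0.09 (95% interval -0.53 to 0.35). Tgfbi, a secreted adhesion protein named for its induction by TGF-β, read 87.9, 57.9 and 108 CPM in OVE853 and 114, 96.1, 146 and 149 CPM in OVE918, against 2.91 to 4.08 CPM in WT. The lines overlapped, and its difference of 0.58 (95% interval 0.11 to 1.05, FDR = 0.16) did not pass. Cdkn1a, the cell cycle inhibitor p21, read 7.52, 4.63 and 4.97 CPM in OVE853 and 10.9, 12.2, 18.7 and 26.1 CPM in OVE918. Its libraries did not overlap, and the difference of 1.57 (95% interval 0.84 to 2.29) just missed the limit (FDR = 0.0554). Fn1, fibronectin, read 52.3, 38.4 and 61.5 CPM in OVE853 and 68.9, 72.1, 103 and 97.4 CPM in OVE918 (difference 0.75, 95% interval 0.36 to 1.14, FDR = 0.0705).

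EMT and contractile genes gave 0 calls, over 5 tested EMT transcription factors (median difference -0.11) and 13 contractile and myofibroblast genes (median 0.08). With 0.487% of all genes called, 0 calls do not set such short lists apart. Acta2, the smooth muscle actin that marks myofibroblasts, read 102, 117 and 130 CPM in OVE853 and 188, 186, 201 and 302.5 CPM in OVE918, against 106 to 158 CPM in WT. The lines did not overlap, OVE853 lay at the level of WT or below, and the difference was 0.92 (95% interval 0.48 to 1.35, FDR = 0.0552), short of both limits. S100a4, a calcium-binding protein used as a fibroblast marker, read 121, 90.8 and 88.6 CPM in OVE853 and 191, 105, 208 and 288 CPM in OVE918 (difference 0.99, 95% interval 0.35 to 1.62, FDR = 0.107), with overlap through OVE918 replicate 2. Tagln, the actin-binding protein transgelin, differed by 1.22 with a wide interval (0.13 to 2.31, FDR = 0.191). Myl9, a myosin light chain, behaved otherwise. It was at 161 to 211 CPM in OVE853 and 138 to 155 CPM in OVE918, each far above WT at 26.3 to 31.7 CPM, and was saturated (difference -0.37, 95% interval -0.60 to -0.13).

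Most collagens had a negative difference. Of 21 tested chains in a list that leaves out the called chain Col2a1, 4 were called lower (background for lower calls 0.415%), namely Col9a2, Col9a3, Col18a1 and Col23a1, and 0 higher, with a median difference of -0.46 and 17 chains below 0. OVE918 libraries lay wholly below OVE853 in 13 chains (61.9%), against 16.2% of all genes. The collagens Col9a1 (-1.71, FDR = 0.107) and Col11a1 (-1.52, FDR = 0.0815) did not pass. Basement membrane chains of the lens capsule such as Col4a1 (-0.41, 95% interval -0.94 to 0.11) did not pass either. Col1a1, the fibrillar chain of fibrotic tissue, had 0.37 with a wide interval (-0.70 to 1.44). Leaving out single libraries or using other size factors kept the median of the list between -0.60 and -0.37, but not its calls. The 4 calls became 0 without OVE853 replicate 1 or 3, 1 without OVE853 replicate 2 or OVE918 replicate 1 or 4, and 6 without WT replicate 3.

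**Figure D5:**
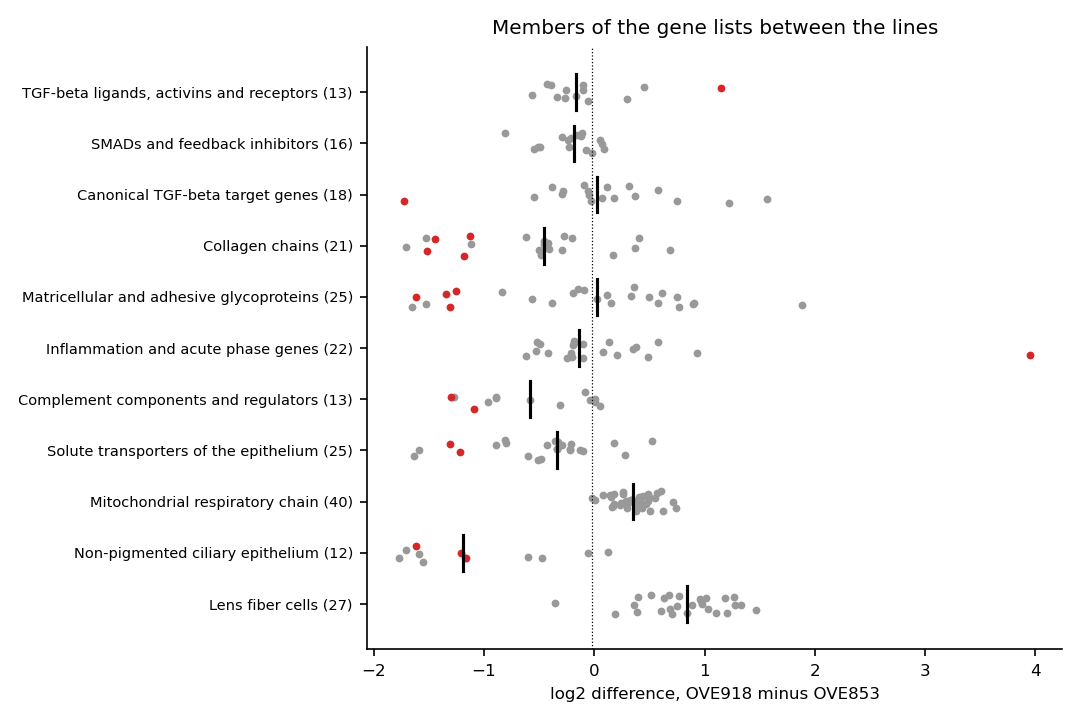
Log2 difference between OVE918 and OVE853 for each tested member of 11 gene lists, with the number of members tested in parentheses. Grey points are genes not called, red points genes called between the lines, short black bars list medians, and the dotted line the median of all genes, -0.02. The medians of the collagens, complement genes and ciliary epithelium markers lie at -0.46, -0.58 and -1.19, and those of the respiratory chain and the fiber markers at 0.35 and 0.84.

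Matricellular and adhesive glycoproteins fell on both sides. Of 25 tested, 4 were called lower and 0 higher, beside 0.415% and 0.0721% of all genes, with a median of 0.03. The lower ones were Optc, Fbln1 (-1.31), Prelp (-1.35) and Fmod (-1.26), and Optc, Prelp and Fmod are small leucine-rich repeat proteoglycans. Optc, Prelp and Fmod lie in a single stretch of chromosome 1 (133824937 to 133976015, GRCm39), so that their calls are not those of separate loci. Chi3l1, higher in OVE918, lies close by (134109889 to 134117919). Fbln1, an elastic fiber protein, was at 336 to 379.5 CPM in OVE853 and 109 to 189.5 CPM in OVE918. At the other end, Spp1, the adhesion protein osteopontin, read 20.4, 14.5 and 28.6 CPM in OVE853 and 32.04, 33.3, 86.0 and 162 CPM in OVE918, against at most 1.44 CPM in WT. Its libraries did not overlap but spread widely, and the difference of 1.88 (95% interval 0.49 to 3.28, FDR = 0.147) did not pass. Aebp1, a collagen-binding protein, passed the FDR below the fold limit (0.91, 95% interval 0.55 to 1.26, FDR = 0.037), at 49.99 to 65.8 CPM in OVE853 and 93.2 to 144 CPM in OVE918. Timp1, the metalloproteinase inhibitor, differed by 0.93 (FDR = 0.0531) and periostin, Postn, by 0.03 (95% interval -0.69 to 0.74).

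Inflammation and acute phase genes gave a single call between the lines, Chi3l1 (background for higher calls 0.0721%). Of 22 tested, 15 were called elevated over WT in OVE853 and 12 in OVE918, where 4.42% and 5.6% of all genes were called in either direction. Of the 12 called in both, 7 were saturated, a share near the 63.5% of all elevated genes, among them Bcl3, Serpina3n, the oncostatin M receptor gene Osmr (-0.18, 95% interval -0.70 to 0.34) and Nampt (0.38, 95% interval 0.14 to 0.61), an enzyme of NAD salvage. The other 5 were undetermined, and the list median was -0.14. Most complement genes also had a negative difference. Of 13 tested complement genes, C4b and Cfi were called lower in OVE918, beside 0.415% of all genes, and 5 passed the FDR alone, all lower. OVE918 libraries lay wholly below OVE853 in 7 (53.8%), beside 16.2% of all genes, with a list median of -0.58. The 2 calls became 0 without OVE853 replicate 1 or 3 or OVE918 replicate 1, and 1 without OVE853 replicate 2 or OVE918 replicate 4. The initiating proteases C1s1 (-0.89, FDR = 0.018) and C1ra (-0.96, FDR = 0.0382) and their inhibitor Serping1 (-0.89, FDR = 0.0382) passed the FDR but not the fold limit. C1s1 read 38.6, 40.6 and 36.4 CPM in OVE853 and 19.1, 25.4, 20.4 and 18.3 CPM in OVE918, where WT was at 21.9 to 28.4 CPM, so that OVE853 alone stood above WT. C3, the central component, read 250, 101 and 180 CPM in OVE853 and 72.2, 28.5, 98.0 and 93.7 CPM in OVE918, with an interval too wide for a call (-1.28, 95% interval -2.43 to -0.12). The C1q genes, made by macrophages, differed by 0.00 for C1qa and C1qc and by -0.04 for C1qb.

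Most solute transporters of the epithelium had a negative difference, and few were called. Of 25 tested, 2 were called lower, beside 0.415% of all genes, and 22 were below 0. OVE918 libraries lay wholly below OVE853 in 18 (72%), beside 16.2% of all genes, and the median was -0.34. The 2 calls became 0 without any 1 OVE853 library or without OVE918 replicate 1 or 4, 1 without WT replicate 1 or 2, and 3 without WT replicate 3. Slc22a8, an organic anion transporter, was called at 31.6 to 42.4 CPM in OVE853 and 11.1 to 19.2 CPM in OVE918 (-1.31, FDR = 0.025). Of 12 tested ciliary epithelium markers, 3 were called lower, Wfdc1 (-1.21), Zic2 (-1.16) and Optc, and 11 were below 0, with a median of -1.19. In 10 (83.3%) OVE918 lay wholly below OVE853, beside the same 16.2%. The ciliary list was written with earlier results of these data known, so that its share is a description. Its members Best2, Slc6a13 and Wfdc1 are among the most reduced genes that the study lists for both lines. The chloride channel gene Best2, at 5.55 to 9.15 CPM in OVE853 and 0.877 to 3.98 CPM in OVE918, missed the FDR (-1.77, FDR = 0.0552). The ciliary list shares Optc and Col9a1 with the matrix lists, and the fibroblast and corneal sums rest on few genes. How far cells of these kinds enter the collagen, proteoglycan and transporter differences was not tested.

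Genes of the mitochondrial respiratory chain and of fiber cells lay on the other side. Of 40 tested subunits of the chain, 0 were called in either direction, beside 0.487% of all genes, and 39 were above 0. In 28 (70%) the OVE918 libraries lay wholly above OVE853, against 13.4% of all genes. The median difference was 0.35. Cox6c, a subunit of cytochrome oxidase, was the single gene of this list that passed the FDR alone, at 83.1 to 96.4 CPM in OVE853 and 123 to 184 CPM in OVE918 (0.72, 95% interval 0.42 to 1.01, FDR = 0.0389). Of 27 tested fiber markers, 0 were called, beside 0.487% of all genes, and 26 were above 0, with a median of 0.84. OVE918 libraries lay wholly above OVE853 in 5 (18.5%), near the 13.4% of all genes. Cryaa, whose promoter drives the transgene, was at 8.23% to 9.17% of counts in OVE853 and 9.86% to 13.02% in OVE918 (log2 difference 0.61, 95% interval 0.25 to 0.96, FDR = 0.0815). OVE853 replicate 2 had γ-crystallins far above the other OVE853 libraries, with Crygb at 7994 CPM against 683 and 718 CPM. The fiber sum was higher in OVE918 except in replicate 2, which lay inside the OVE853 range. Its part in the respiratory chain difference was not tested.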

How the data were processed

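RNA of pooled lens epithelial explants was sequenced in 10 libraries (WT 3, OVE853 3, OVE918 4). Reads were trimmed with cutadapt 5.2, aligned to GRCm39 with STAR 2.7.11b and summarized per RefSeq gene with featureCounts 2.0.8 in reverse-stranded mode, versions as in the submitters' processing notes. The authors deposited raw counts for 50763 genes without normalization, and 0 columns lacked a sample. Members, gene lists and tests were chosen with earlier results of these data known.

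Counts were scaled by TMM and fitted in edgeR 4.0.16 (R 4.3.3) by the quasi-likelihood method with robust dispersions, 3 groups in 1 model and no covariate, with the contrast OVE918 minus OVE853 and Benjamini-Hochberg adjustment over all genes tested. Called genes had FDR at most 0.05 and an at least 2-fold change. Genes entered with at least 2 FPKM in 5 libraries, where lengths and positions were those of the Primary transcripts in GENCODE vM39, joined by gene symbol, and not those of RefSeq. The 95% intervals came from the quasi-likelihood standard error. Replicates were pools of mice, and p-values measure the spread between pools. Steps were tested on simulated data. Alternatives used DESeq2 1.42.0, voom in limma 3.58.1, other filters, blocks, RIN and leaving out each library. List medians under other size factors and without single libraries were added after seeing the data.

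Genes were named by a rule: Tgfb1, the 10 largest rises and falls among called genes whose lines did not overlap, called genes of a list, genes the study names for a list or as differing between the lines, and the 10 saturated genes of largest change. Other names were chosen after values were seen. Gene symbols of a Gm, Rik or LOC type were counted and not named, and some genes that the rule names are not reported here.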

Additional observations from a re-analysis of the deposited data

Results flagged for a closer look

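In 56 series of 4 OVE918 values examined with Dixon's criterion, which chance meets in about 1 of 20 groups, a pair stood out, both through OVE918 replicate 4. Acta2 read 302.5 CPM there, against 186 to 201 CPM in the other OVE918 libraries, a gap of 0.867 of the range. The summed level of 10 Müller glia markers was 19970 CPM, against 17690 to 18050 CPM, a gap of 0.842 of the range, where OVE853 libraries lay at 17630 to 18690 CPM.

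In 14 called genes the fitted log2 fold changes over WT had opposite signs in the 2 lines, with OVE853 above WT and OVE918 below it in 9 and the reverse in 5. For the 6 of them that the naming rule takes, the difference between the lines was tested by edgeR with Benjamini-Hochberg adjustment. The log2 difference was 3.95 for Chi3l1 (FDR = 0.0355), 1.27 for Gpr27 (FDR = 0.025), 1.26 for Kctd12 (FDR = 0.0202), 1.13 for Lsamp (FDR = 0.0396) and 1.11 for Sec11c (FDR = 0.0349), each with OVE853 below WT and OVE918 above it. For Dio3 it was -2.04 (FDR = 0.019), with OVE853 above WT and OVE918 below. Of the 12 log2 fold changes over WT behind these 6 differences, only that of Chi3l1 in OVE853 (-2.28) and those of Gpr27 (1.03) and Dio3 (-1.81) in OVE918 were called.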

How the results depend on the processing

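No alternative turned the direction of Tgfb1 or of the 30 named called genes, but most of these lost their call when any 1 of 5 libraries was left out. Calls were kept by 0 of 29 tested without OVE853 replicate 1, 3 of 30 without OVE853 replicate 2, 1 of 30 without OVE853 replicate 3, 2 of 29 without OVE918 replicate 1 and 4 of 29 without OVE918 replicate 4. The numbers of genes higher and lower in OVE918 (8 and 46), of graded genes (34) and of saturated genes (211) depended on the setting, and the causes were not tested. DESeq2 gave 35 and 71 calls with 69 graded, voom 39 and 72 with 66 graded, and the fit of the transgenic libraries alone 29 higher. All 54 called genes were also called by DESeq2. The slope per doubling of Tgfb1 gave 22 higher, and no filter 13 higher and 345 saturated. With filterByExpr there were 359 saturated, and 25 of the 54 called genes were shared, with 18058 genes tested. RIN as a covariate gave 19 lower and 14 graded. Without a fold minimum there were 42 higher, 104 lower, 74 graded and 929 saturated. Tested against 2-fold, 0 were higher, 0 lower and 0 graded, with 66 saturated and 52 genes at an unadjusted p under 0.05 in edgeR, and Tgfb1 (1.15) did not pass. Intervals inside 1.5-fold left 77 saturated.

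The replicate block gave 3 higher, 25 lower and 19 graded, with 21 of the 54 shared. Deviations of libraries with the same replicate number correlated by 0.0767, -0.303 and -0.032, and those with different replicate numbers by -0.399 to 0.389. Deviations cancel within each line, so that these correlations are not independent. They showed no pairing by replicate number, which was not tested further. The R number of the study's library names, whose meaning is not given in the sources used here, gave 5 higher and 28 lower as a block, with 27 shared. Libraries of the same R number correlated by 0.0477, 0.295 and 0.389, and those of different R numbers by -0.399 to 0.0824. These correlations are not independent either. Whether libraries share an effect of the R number was not tested, and the main model does not include that number.

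Leaving out 1 library gave 1 to 33 higher, 5 to 68 lower and 3 to 62 graded genes. Graded genes numbered 3, 4 and 3 without OVE853 replicate 1, 2 and 3, 9 and 5 without OVE918 replicate 1 and 4, and 20 and 62 without WT replicate 2 and 3. Lower calls were 27 without WT replicate 2, and higher calls 33 without OVE918 replicate 2. With 3 or 4 pools a line, the 95% interval reached a median of 0.29 to each side on the log2 scale.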

Other observations

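A run of neighbouring genes near the end of chromosome X was highest in OVE853. It was noticed after values were seen and carries no explanation. Sts (168909030 to 169014924, GRCm39), the steroid sulfatase gene, had the smallest FDR of all genes between the lines (0.0026), with 19.6, 17.5 and 18.6 CPM in OVE853 and 7.62, 6.74, 8.32 and 8.58 CPM in OVE918, against 9.44 to 10.3 CPM in WT. Nlgn4l (169067543 to 169089096), a neuroligin gene, read 36.1, 32.2 and 33.2 CPM in OVE853 and 13.7, 18.0, 14.3 and 11.4 CPM in OVE918, against 14.5 to 17.0 CPM in WT (log2 difference -1.24, FDR = 0.00692). Akap17a (169097632 to 169105554), which encodes an anchoring protein of protein kinase A, read 57.1, 45.7 and 48.1 CPM in OVE853 and 25.0, 25.3, 19.7 and 30.9 CPM in OVE918, against 28.2 to 33.0 CPM in WT (-0.997, FDR = 0.0173). In these 3 genes every OVE853 library lay above every other library. Mid1 (168468195 to 168773794), on the other side of Sts, pointed the opposite way, at 13.9 to 17.4 CPM in OVE853 and 17.4 to 55.3 CPM in OVE918, and did not pass (1.15, FDR = 0.0815).

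All 17 tested immediate early genes had a log2 difference above 0 (median 0.39). Of these 0 were called, beside 0.487% of all genes, and 0 were without overlap between the lines, beside 29.5%. The median was -0.21 without OVE918 replicate 2, -0.01 without OVE853 replicate 2 and up to 1.01 over the other alternatives.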
